A study of Mus musculus with 10 samples.

Results

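This account covers 59 genes of glutathione metabolism, peroxide and superoxide removal, the thioredoxin system and aldehyde oxidation in a mouse embryonic stem cell line kept in 5 culture conditions. They were chosen by symbol: glutathione S-transferases, glutathione peroxidases, peroxiredoxins, symbols that begin with Txn, aldehyde dehydrogenases, superoxide dismutases, catalase, the enzymes that make and reduce glutathione, sulfiredoxin, Nqo1, Nqo2, Hmox1 and Hmox2. Of 64 such symbols in the part of the deposited table where symbols stand beside their own values, 2 were left out by name (Gstm3 and Aldh1l1) and 3 were left out because fewer than 2 libraries reached 1 TPM (Gpx5, Gstt4 and Aldh1a7). A further 23 matching symbols stand in lower lines of the table, where symbols and values are offset, and were not used here. Among the 14578 genes of the whole table that reached the same level, the 59 are mostly well above it: 53 had at least 1 TPM in all 10 libraries. The other 6 were Gsta3, Gsto2, Gstt1, Aldh1a3, Aldh1l2 and Aldh3a1, which missed that level in 1 or more libraries. Such members could enter through the conditions where they are high, so counts over the members are given as description. Just inside the limit, Aldh3a1 reached 1 TPM in 3 libraries, with 0.514 and 0.0990 TPM in SL, 0.948 and 1.36 in 2iL, 0.819 and 0.988 in A2iL, 0.551 and 0.727 in LCDM and 2.35 and 2.02 in 2iL-F. Just outside it, Aldh1a7 was at most 0.372 TPM and Gstt4 at most 0.393.

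Glutathione is a tripeptide that cells make in 2 steps and use to reduce peroxides and to tag electrophiles, and the oxidised form is returned to use by glutathione reductase with NADPH. The thioredoxin system works beside it: thioredoxin reductase keeps thioredoxin reduced, and thioredoxin in turn serves the peroxiredoxins. Many genes of both systems are targets of the transcription factor NRF2, which binds antioxidant response elements, while aldehyde dehydrogenases oxidise reactive aldehydes, intermediates of amino acid breakdown and, for some members, retinaldehyde.

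RNA-seq libraries came from an embryonic stem cell line with the strain label C57BL6X129S6F1, with 2 libraries per condition. SL was KO-DMEM with 15% FBS as serum and 1000 IU mLIF, on feeders. Every other condition was N2B27 without serum, with 1000 IU mLIF and 3 µM Chir99021, a GSK3 inhibitor. In addition, 2iL held 1 µM PD0325901, a MEK inhibitor, on feeders; A2iL held 1.5 µM CGP77675, a Src inhibitor, on feeders; LCDM held 2 µM Dim and 2 µM Mih, on feeders; and 2iL-F was the same medium as 2iL, labelled as without feeders. All groups thus shared mLIF, and no group had serum together with Chir99021. The labels name 1 line, give no origin for the feeder cells, and do not state separate cultures for the libraries, so each p-value reflects only how far these libraries spread, possibly for technical reasons. Levels are TPM, a transcript abundance unit scaled per gene length and per library that keeps no read number, so read depth is unknown here.

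The libraries of a condition lay close together, with Pearson correlations across genes of 0.992 to 0.994. Stem cell markers were present throughout: all 7 with usable names had at least 1 TPM in both libraries of every condition, and their summed level ran from 1907 TPM in an SL library to 3399.5 in an LCDM library. Fibroblast markers, which stand for the usual feeder cells, went against the feeder labels. The 35 markers summed to 6085 and 6378 TPM in SL, 3372 and 3455 in A2iL, 1093 and 1098 in LCDM, 4794 and 4978 in 2iL-F, and 752 and 756 in 2iL, where 10 of 35 reached 1 TPM in both libraries and 8 (Fap, Dcn, Thbs2, Lox, Postn, Bgn, Col12a1 and Acta2) were listed at 0 in both. The sum in 2iL came mostly from Sparc (436 and 446 TPM), Pcolce (139 and 122) and Timp1 (122 and 129.7), so it understates the gap: the median marker difference of LCDM from 2iL was 2.80 on the log2(TPM + 1) scale. The names 2iL and 2iL-F are therefore used for libraries so labelled, and what they say of feeders rests on those labels alone. In such mixed RNA, fewer cells of a type and less RNA per cell cannot be told apart.

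Differences below are of log2(TPM + 1) ± standard error (SE) from a limma fit over all genes and all 10 libraries, a scale that understates changes of genes with low TPM, and "called" stands for an adjusted p (Benjamini-Hochberg) under 0.05. Nearly every one of these genes differed somewhere: 55 of 59 were called in the test for any difference among the 5 conditions, beside 90.1% of all genes tested, so this share is close to the background. The 4 that were not called were Gstt1, Txndc17, Prdx3 and Txnl4b. SL was the condition with the lowest mean level for 23 members (39.0%, against 25.2% of all genes tested) and the highest for 17 (28.8%, against 31.8%). 2iL was the highest for 23 members (39.0%, against 28.2%) and the lowest for 14 (23.7%, against 31.7%). A2iL was highest for 4 (6.78%, against 9.17%) and lowest for 6 (10.2%, against 14.3%), the fewest of the 5 conditions among the members. Among all genes A2iL was also the least often highest, but LCDM was the least often lowest (11.6%).

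**Figure D1:**
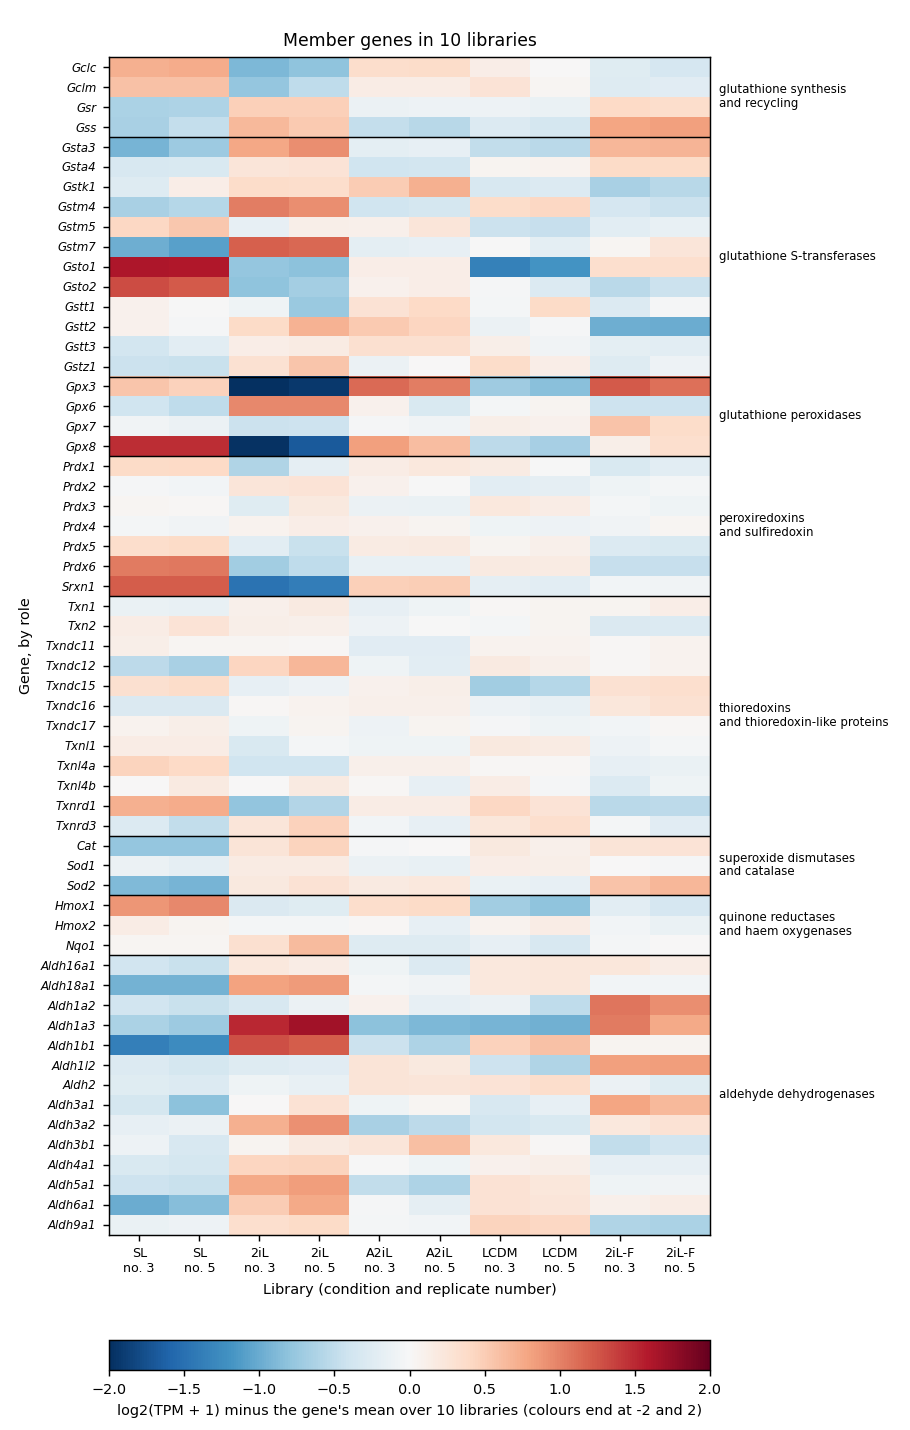
Levels of the 59 genes (rows, by role) in the 10 libraries (columns, by condition and replicate number), as log2(TPM + 1) minus the gene's mean over the libraries, with colours ending at -2 and 2. Gpx3 and Gpx8 have the darkest cells, SL and 2iL differ in most rows, and the 2 libraries of a condition look alike.

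Against SL, 2iL had 32 of 59 members higher and 17 lower, beside 36.7% of all genes tested called higher and 40.9% lower. The members' median difference was 0.29, against -0.04 for all genes. For A2iL the counts were 23 higher and 18 lower, beside 21.9% and 31.9% of all genes, with a median of 0.05 against -0.07. With median-of-ratios scaling the A2iL counts became 28 higher and 14 lower, which moves the share of higher calls from 56.1% to 66.7%; over all genes it moved from 40.7% to 51.3%. LCDM had 24 higher and 18 lower, beside 32.2% and 33.7% of all genes, with a median of 0.09 against -0.00 for all genes. 2iL-F had 25 higher and 19 lower, beside 28.1% and 37.3%, with a median of 0.04 against -0.08. Members called higher made up 54.2% in 2iL, 42.4% in 2iL-F, 39.0% in A2iL and 40.7% in LCDM, each above the share of all genes. Members called lower made up 28.8%, 32.2%, 30.5% and 30.5% in the same order, each below the share of all genes. In A2iL (31.9% of all genes) and LCDM (33.7%) that gap was small, so these lower counts are close to the background. The 4 comparisons share the SL libraries, and their values stand side by side below without being independent of each other. Of the 35 fibroblast markers, 1 was higher and 34 lower in 2iL than in SL, 15 and 18 in 2iL-F, 9 and 18 in A2iL, and 0 and 33 in LCDM; their part in the members' differences from SL was not tested.

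The enzymes of glutathione synthesis and recycling moved in opposite directions. Gclc (mm10 chromosome 9, 77754535 to 77794485), the catalytic subunit of glutamate-cysteine ligase, which carries out the rate-limiting step, had 64.6 and 65.9 TPM in SL, 20.5 and 21.8 in 2iL, 50.01 and 50.5 in A2iL, 42.8 and 39.3 in LCDM and 32.7 and 30.6 in 2iL-F. Every serum-free library lay below both SL libraries, and those labelled 2iL were the lowest. The differences from SL were -1.58 ± 0.06 in 2iL, -1.02 ± 0.06 in 2iL-F, -0.37 ± 0.06 in A2iL and -0.66 ± 0.06 in LCDM. Gclm (chromosome 3, 122245557 to 122270732), the modifier subunit of the same enzyme, had 48.3 and 48.4 TPM in SL, 18.3 and 22.1 in 2iL, 35.6 and 35.5 in A2iL, 38.7 and 33.0 in LCDM and 26.7 and 27.2 in 2iL-F. It followed the same order of conditions except that A2iL and LCDM overlapped, with -1.23 ± 0.09 in 2iL and -0.82 ± 0.09 in 2iL-F against SL. Gss (chromosome 2, 155563181 to 155592810), glutathione synthetase, which completes the tripeptide, had 13.3 and 15.1 TPM in SL, 34.1 and 31.4 in 2iL, 15.2 and 14.3 in A2iL, 17.7 and 16.6 in LCDM and 37.9 and 38.9 in 2iL-F. Both conditions with PD0325901 were high and did not overlap with the other 3, at 1.15 ± 0.07 in 2iL and 1.37 ± 0.07 in 2iL-F against SL, while A2iL (0.05) was not called. Acss2 overlaps Gss on the other strand, and strand use in the counting is not given in the sources used here. Gsr (chromosome 8, 33652523 to 33698163), glutathione reductase, had 119.9 and 121 TPM in SL, 258 and 259 in 2iL, 171 and 174 in A2iL, 173 and 170.3 in LCDM and 245 and 238 in 2iL-F. The 2 PD0325901 conditions again stood highest, A2iL and LCDM lay between them and SL, and the differences from SL were 1.09 ± 0.04 in 2iL, 0.99 ± 0.04 in 2iL-F, 0.51 ± 0.04 in A2iL and 0.50 ± 0.04 in LCDM. In the 2 PD0325901 conditions, the reductase and synthetase transcripts were thus at their highest and those of both ligase subunits at their lowest.

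**Figure D2:**
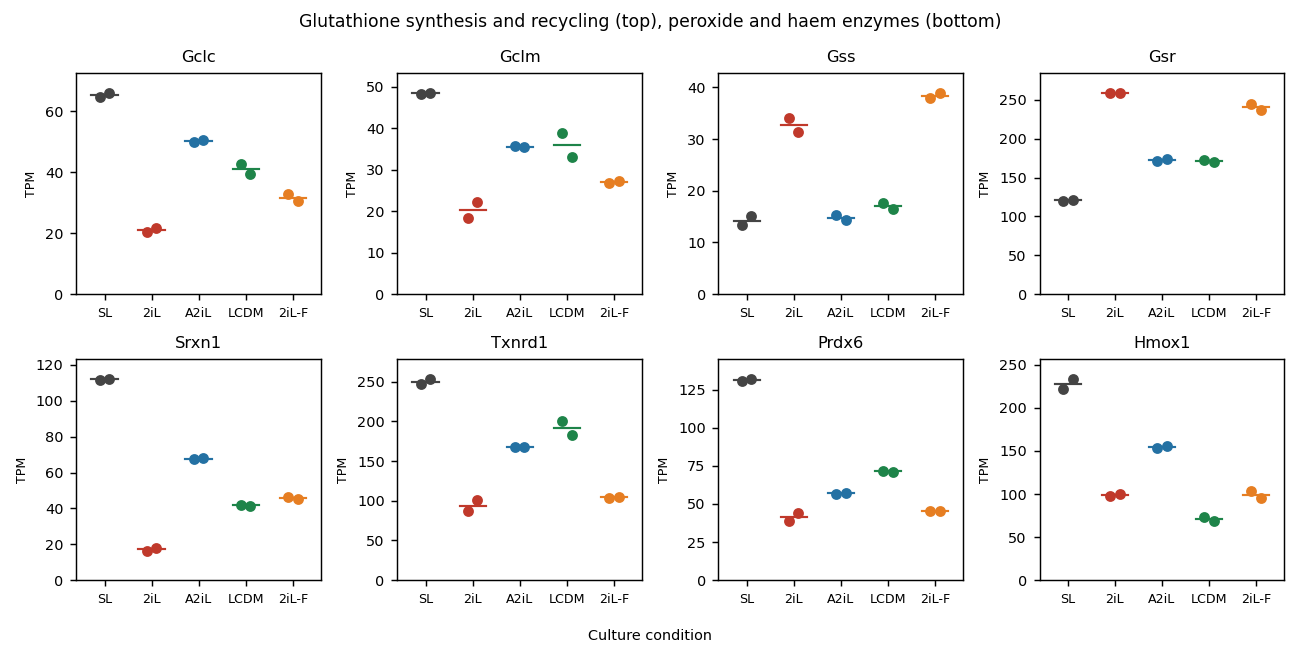
TPM of 8 genes in each library (points) with the mean of each condition (lines), for glutathione synthesis and recycling in the top row and peroxide and haem enzymes in the bottom row. Gclc runs from 65.9 TPM in an SL library down to 20.5 in a 2iL library, while Gsr runs from 119.9 up to 259 TPM.

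The core antioxidant response element, TGACNNNGC, was looked for on both strands in RefSeq promoters (GRCm38.p6, from 250 bases before to 50 after each start). It was found in 12.4% of all 32851 promoters, and in at least 1 promoter of 14.0% of genes. Of the 47 members with a promoter in that table, 11 (23.4%) held it: Aldh1a2, Aldh9a1, Gclm, Gsta3, Gstm5, Gstm7, Prdx1, Sod1, Srxn1, Txndc11 and Txnrd1. Members without an entry were Aldh1a3, Aldh1l2, Aldh2, Aldh3a1, Gclc, Gsr, Gsta4, Gstt2, Hmox1, Prdx6, Txnl1 and Txnl4a. A match is a run of letters and not a measured binding site. The stretches below show it, in capitals, with 30 bases on each side, 5′ to 3′ on the gene's strand, all of which lie before the start. They are shown because the first 3 belong to members lower in 2iL than in SL and the other 2 to members that were higher, so members with the element moved in both directions. They lie at chr3:122245393-122245461 (Gclm), chr4:116685436-116685504 (Prdx1), chr10:82859084-82859152 (Txnrd1, the only 1 of its 3 listed starts with the element), chr1:21240434-21240502 (Gsta3) and chr16:90220676-90220744 (Sod1), all on the plus strand. In Gclm, Prdx1, Txnrd1 and Sod1 the element reads on the opposite strand, so its letters appear here as the reverse complement. Gsta3 was under 1 TPM in both SL libraries (0.459 and 0.686) and reached 1 TPM in 6 libraries, so its direction is a description.
Gclm: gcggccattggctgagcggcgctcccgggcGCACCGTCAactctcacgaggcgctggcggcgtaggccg
Prdx1: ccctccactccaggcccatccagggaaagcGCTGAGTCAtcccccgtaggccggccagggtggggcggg
Txnrd1: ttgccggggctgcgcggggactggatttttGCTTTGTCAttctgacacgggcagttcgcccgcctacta
Gsta3: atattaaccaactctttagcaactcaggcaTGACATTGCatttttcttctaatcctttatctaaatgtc
Sod1: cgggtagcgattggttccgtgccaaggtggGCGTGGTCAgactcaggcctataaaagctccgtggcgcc

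Of 7 genes for peroxiredoxins and sulfiredoxin, 4 were lower and 2 higher in 2iL than in SL, beside 40.9% and 36.7% of all genes, which for 7 genes is close to the background. Srxn1 (chromosome 2, 152105516 to 152111376), sulfiredoxin, which restores overoxidised peroxiredoxins, had 112 and 112 TPM in SL, 16.5 and 17.8 in 2iL, 67.4 and 68.2 in A2iL, 42.0 and 41.4 in LCDM and 46.3 and 45.4 in 2iL-F. No 2 conditions overlapped, and the libraries labelled 2iL were the lowest. It differed from SL by -2.64 ± 0.05 in 2iL (adjusted p = 4.75e-10, limma), -1.27 ± 0.05 in 2iL-F, -0.72 ± 0.05 in A2iL and -1.40 ± 0.05 in LCDM. Prdx6 (chromosome 1, 161240112 to 161251219), a peroxiredoxin that also has phospholipase activity, had 131 and 132 TPM in SL, 38.6 and 43.9 in 2iL, 56.7 and 57.0 in A2iL, 71.9 and 70.7 in LCDM and 45.5 and 45.4 in 2iL-F. SL stood well above the other conditions, with differences of -1.65 ± 0.06 in 2iL, -1.51 ± 0.06 in 2iL-F, -1.19 ± 0.06 in A2iL and -0.87 ± 0.06 in LCDM. Prdx1, the most abundant family member and a cytosolic enzyme, had 533 and 542 TPM in SL, 270.0 and 364 in 2iL, 456 and 476 in A2iL, 458 and 409 in LCDM and 332 and 353 in 2iL-F, and its 2 libraries of 2iL spread more widely than those of other conditions. It fell by 0.78 in 2iL and by 0.65 in 2iL-F on the log2 scale, while A2iL (-0.21) was not called. Prdx5, found in mitochondria, peroxisomes and cytosol, was lower in 2iL (-0.69 ± 0.07) and in 2iL-F (-0.65 ± 0.07). Trmt112 overlaps Prdx5 on the other strand. Prdx2, the other main cytosolic enzyme, ranged from 175 to 244 TPM over the 10 libraries and was higher in 2iL than in SL by 0.29 ± 0.04. The mitochondrial Prdx3, at 55.7 to 76.6 TPM, was called in none of the 8 pairwise comparisons, and the endoplasmic reticulum enzyme Prdx4, at 35.7 to 42.0 TPM, moved by at most 0.20 between any 2 condition means.

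Of 12 genes for thioredoxins and related proteins, 4 were higher and 4 lower in 2iL than in SL, near the background of 36.7% and 40.9% of all genes. Txn1, the cytosolic thioredoxin and the second most abundant of the 59 by mean TPM, had 597 and 596 TPM in SL, 705 and 747 in 2iL, 586 and 618 in A2iL, 669.6 and 680.2 in LCDM and 681 and 725 in 2iL-F, with 2iL (0.28 ± 0.05) and 2iL-F (0.24 ± 0.05) above SL. Txnrd1 (chromosome 10, 82833951 to 82897712), the selenoenzyme that reduces it, had 247 and 253 TPM in SL, 86.9 and 101 in 2iL, 168 and 168 in A2iL, 201 and 183 in LCDM and 103 and 105 in 2iL-F. It was lowest in the conditions with PD0325901, where it differed from SL by -1.41 ± 0.07 and -1.25 ± 0.07, against -0.57 ± 0.07 in A2iL and -0.38 ± 0.07 in LCDM. Thioredoxin was thus slightly higher and its reductase lower in 2iL, 2iL-F and LCDM, where Txn1 was called at 0.18, a call lost without either SL library or LCDM replicate 5 (limma adjusted p of 0.0515 to 0.0650). Txnrd3, a relative that can also reduce glutathione disulfide, rose by 0.73 in 2iL and by 0.66 in LCDM, at 6.04 to 12.6 TPM. The mitochondrial Txn2 was lower in 2iL-F than in SL (-0.50 ± 0.06). Txndc12, an oxidoreductase of the endoplasmic reticulum, had 25.1 and 22.9 TPM in SL, 49.4 and 57.9 in 2iL, 34.2 and 31.3 in A2iL, 41.3 and 39.1 in LCDM and 36.9 and 38.4 in 2iL-F, and each serum-free library was above both SL libraries, by 1.12 ± 0.08 in 2iL and 0.72 ± 0.08 in LCDM. Txndc15, a membrane protein linked to cilia, was lowest in LCDM, at 7.27 and 7.97 TPM against 15.6 and 16.2 in SL (-0.97 ± 0.06). Txnl4a, a thioredoxin-fold protein of the spliceosome, was highest in SL, at 174 and 169.5 TPM, and lowest in 2iL, at 97.4 and 96.6 (-0.82 ± 0.04). Txndc17 (87.1 to 102 TPM) and Txnl4b (5.53 to 7.88 TPM) were called in none of the 8 pairwise comparisons. Txnl1, a proteasome-associated thioredoxin-like protein, differed from SL by -0.32 ± 0.08 in 2iL, and Txndc11 and Txndc16, both membrane or secretory pathway proteins, had differences from SL between -0.31 and 0.55.

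Sod2 and Cat were higher in each serum-free medium. Sod2 (chromosome 17, 13006846 to 13040063), the mitochondrial manganese enzyme, had 48.8 and 47.1 TPM in SL, 104 and 111 in 2iL, 102 and 104 in A2iL, 82.6 and 80.6 in LCDM and 135 and 143 in 2iL-F. SL was lowest without overlap and 2iL-F highest, with differences from SL of 1.15 ± 0.05 in 2iL, 1.52 ± 0.05 in 2iL-F, 1.09 ± 0.05 in A2iL and 0.76 ± 0.05 in LCDM. Cat (chromosome 2, 103453849 to 103485160), peroxisomal catalase, had 54.4 and 54.5 TPM in SL, 111 and 128 in 2iL, 92.1 and 93.4 in A2iL, 107 and 100.4 in LCDM and 112 and 114 in 2iL-F. It too was lowest in SL, with 1.12 ± 0.07 in 2iL, 1.04 ± 0.07 in 2iL-F, 0.76 ± 0.07 in A2iL and 0.92 ± 0.07 in LCDM. Sod1, the cytosolic copper-zinc enzyme and the most abundant of all 59, had 998 and 955 TPM in SL, 1218 and 1219.6 in 2iL, 998 and 983 in A2iL, 1185 and 1175 in LCDM and 1087 and 1071 in 2iL-F. Its changes were smaller: 0.32 ± 0.04 in 2iL and 0.27 ± 0.04 in LCDM, with A2iL (0.02) not called. Scaf4 overlaps Sod1 on the other strand.

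Of the haem oxygenases, which break down haem, the inducible Hmox1 (chromosome 8, 75093621 to 75100589) had 222 and 233 TPM in SL, 98.2 and 101 in 2iL, 153 and 156 in A2iL, 73.8 and 68.2 in LCDM and 103 and 94.9 in 2iL-F. SL was highest without overlap, and LCDM, not 2iL, was lowest. The differences from SL were -1.19 ± 0.06 in 2iL, -1.19 ± 0.06 in 2iL-F, -0.56 ± 0.06 in A2iL and -1.67 ± 0.06 in LCDM. The constitutive Hmox2 stayed between 32.3 and 40.2 TPM in all libraries. Nqo1 (chromosome 8, 107388225 to 107403206), a quinone reductase often used as a readout of NRF2, had 79.3 and 78.9 TPM in SL, 96.4 and 119.9 in 2iL, 64.5 and 64.6 in A2iL, 68.6 and 61.2 in LCDM and 74.8 and 77.0 in 2iL-F. It was highest in 2iL, by 0.44 ± 0.09 over SL, where Gclc, Gclm, Srxn1, Txnrd1 and Hmox1 were lower than in SL. It was lower in A2iL (-0.73 ± 0.09) and LCDM (-0.72 ± 0.09) than in 2iL. Against SL, Nqo1 was called lower in A2iL (-0.29) and in LCDM (-0.28), calls lost under 5 and 3 of the alternative fits.

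Glutathione S-transferases attach glutathione to electrophiles or use it for reductions. Of the 12 among the members, 8 were higher and 3 lower in 2iL than in SL, beside 36.7% and 40.9% of all genes. Near-identical copies within the mu, alpha and theta classes can share reads, so single values there are uncertain. Gsta4, the alpha class enzyme that clears the lipid aldehyde hydroxynonenal, was the most abundant of these 12. It had 345 and 349 TPM in SL, 512 and 518 in 2iL, 325 and 332 in A2iL, 447 and 454 in LCDM and 559 and 559 in 2iL-F. It was highest in the PD0325901 conditions, by 0.57 ± 0.04 and 0.68 ± 0.04 over SL, and A2iL (-0.08) was not called. Gsta3, of the same class, had 0.459 and 0.686 TPM in SL, 3.75 and 4.30 in 2iL, 1.41 and 1.47 in A2iL, 0.962 and 0.914 in LCDM and 3.37 and 3.46 in 2iL-F, also with 2iL (1.68 ± 0.10) and 2iL-F (1.49 ± 0.10) on top. Gsto1 (chromosome 19, 47854970 to 47864790), an omega class enzyme that reduces dehydroascorbate, had 263 and 261 TPM in SL, 49.8 and 47.8 in 2iL, 93.6 and 94.0 in A2iL, 33.0 and 36.6 in LCDM and 108 and 108 in 2iL-F. It was high in SL and lowest in LCDM, with differences from SL of -2.40 ± 0.05 in 2iL, -1.27 ± 0.05 in 2iL-F, -1.47 ± 0.05 in A2iL and -2.88 ± 0.05 in LCDM. As with the fibroblast marker sums, Gsto1 was highest in SL and lower in 2iL and LCDM than in A2iL and 2iL-F, and their part in it was not tested. Gsto2, its neighbour on the chromosome, had 4.02 and 3.78 TPM in SL, 0.170 and 0.266 in 2iL, 1.17 and 1.24 in A2iL, 1.00 and 0.683 in LCDM and 0.403 and 0.507 in 2iL-F and was also highest in SL (-2.01 ± 0.11 for 2iL against SL). Cfap43 overlaps both omega genes on the other strand.

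The mu class did not move together. Gstm7 had 1.25 and 1.08 TPM in SL, 9.03 and 8.75 in 2iL, 2.84 and 2.91 in A2iL, 3.401 and 2.87 in LCDM and 3.52 and 4.20 in 2iL-F, lowest in SL and highest in 2iL (2.19 ± 0.10). Gstm4 had 10.1 and 10.8 TPM in SL, 34.5 and 32.2 in 2iL, 12.2 and 12.6 in A2iL, 21.4 and 22.2 in LCDM and 12.7 and 11.9 in 2iL-F, likewise highest in 2iL (1.59 ± 0.06) and next in LCDM (1.00 ± 0.06). Gstm5 went the other way, at 14.4 and 15.9 TPM in SL, 9.33 and 11.6 in 2iL and 7.61 and 7.46 in LCDM (-0.92 ± 0.10 for LCDM against SL). Gstt2, of the theta class, was lowest in 2iL-F, at 1.40 and 1.37 TPM against 5.13 and 6.56 in 2iL. Gstk1, a kappa class enzyme of mitochondria and peroxisomes, was highest in A2iL, at 5.57 and 6.59 TPM, and lowest in 2iL-F, at 1.95 and 2.14. Gstz1, which isomerises maleylacetoacetate in tyrosine breakdown, rose by 0.87 in 2iL and by 0.69 in LCDM against SL, and Gstt3 was at 2.31 to 4.32 TPM throughout. Gstt1, at 0.431 to 2.15 TPM, was not called against SL in any of the 4 media.

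Of the 59 members, the glutathione peroxidases Gpx8 and Gpx3 had the widest ranges of condition means on the log2(TPM + 1) scale; by the ratio of mean TPM, Aldh1a3 (25.8) and Gsto2 (17.9), both low, ranged more than Gpx8 (11.2) and Gpx3 (9.78). Gpx8 (chromosome 13, 113042753 to 113046410), a peroxidase of the endoplasmic reticulum, had 74.0 and 74.5 TPM in SL, 5.86 and 7.44 in 2iL, 47.0 and 40.7 in A2iL, 17.9 and 16.0 in LCDM and 28.3 and 33.1 in 2iL-F. SL was highest and 2iL lowest, without overlap, at -3.31 ± 0.12 in 2iL, -1.25 ± 0.12 in 2iL-F, -0.75 ± 0.12 in A2iL and -2.07 ± 0.12 in LCDM against SL. Cdc20b overlaps Gpx8 on the other strand. Gpx3 (chromosome 11, 54902453 to 54910377), the secreted plasma form, had 46.8 and 43.8 TPM in SL, 7.11 and 7.54 in 2iL, 70.2 and 64.8 in A2iL, 18.8 and 17.2 in LCDM and 74.8 and 68.5 in 2iL-F. It was lower than SL in 2iL (-2.47 ± 0.07) and LCDM (-1.28 ± 0.07) and higher in A2iL (0.57 ± 0.07) and 2iL-F (0.65 ± 0.07). The summed fibroblast markers were also lowest in 2iL (752 and 756 TPM) and LCDM (1093 and 1098 TPM). What part fibroblast RNA has in the levels of Gpx3 and Gpx8 was not tested. Gpx7, another enzyme of the endoplasmic reticulum, had 36.6 and 35.1 TPM in SL, 28.1 and 28.4 in 2iL, 37.6 and 36.4 in A2iL, 41.7 and 40.8 in LCDM and 57.3 and 49.6 in 2iL-F and was highest in 2iL-F (0.56 ± 0.07). Gpx6, known from the olfactory epithelium, was highest where Gpx3 was lowest: it had 2.28 and 2.04 TPM in SL, 7.37 and 7.35 in 2iL, 3.57 and 2.47 in A2iL, 3.20 and 3.48 in LCDM and 2.22 and 2.23 in 2iL-F, with 2iL above every other library (1.40 ± 0.12).

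**Figure D3:**
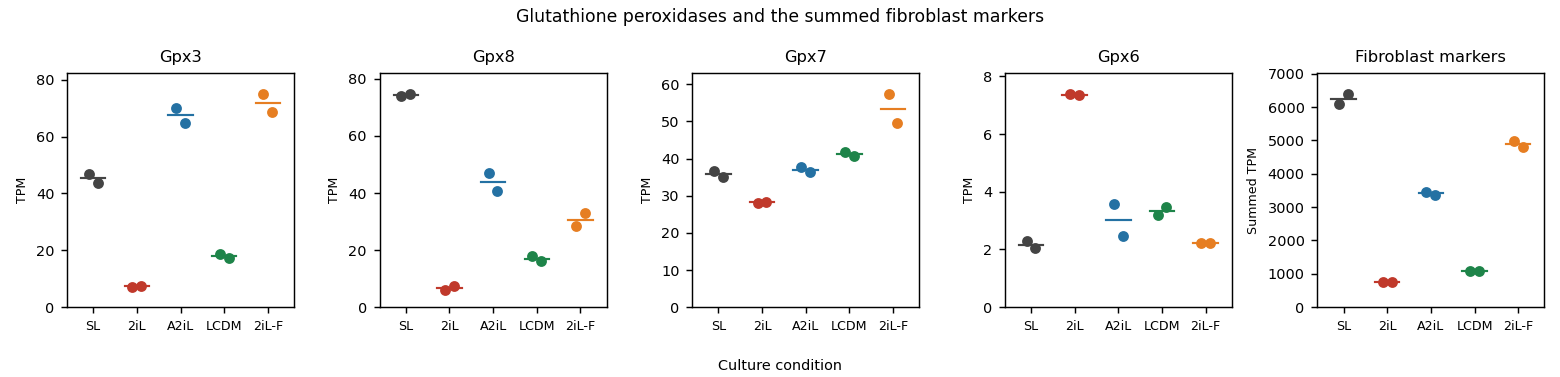
TPM of 4 glutathione peroxidases and the summed TPM of 35 fibroblast markers in each library (points), with the mean of each condition (lines). Gpx3, Gpx8 and the marker sum are lowest in the libraries labelled 2iL and next lowest in LCDM, and Gpx6 is highest in 2iL.

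Most of the 14 aldehyde dehydrogenases among the members were higher without serum. Against SL, 11 were higher and 0 lower in 2iL, 11 higher and 1 lower in 2iL-F, 9 higher and 1 lower in A2iL and 8 higher and 0 lower in LCDM. Aldh1a3 and Aldh3a1 are among the 14 but reached 1 TPM in only 4 and 3 libraries, none of them SL. Their calls against SL are thus a description. The call of Aldh2 in 2iL (0.13) was lost under 11 of the alternative fits. Beside the counts stand 36.7% of all genes called higher and 40.9% lower in 2iL, 28.1% and 37.3% in 2iL-F, 21.9% and 31.9% in A2iL and 32.2% and 33.7% in LCDM. The summed level of the 14 was 272 and 271 TPM in SL, 477 and 487 in 2iL, 337 and 325 in 2iL-F, 369 and 360 in A2iL and 431 and 436 in LCDM.

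Among enzymes of amino acid metabolism, Aldh18a1, Aldh6a1 and Aldh4a1 were higher in all 4 media. Aldh18a1 (chromosome 19, 40550257 to 40588463), which starts proline synthesis from glutamate, had 37.4 and 37.5 TPM in SL, 129 and 133 in 2iL, 71.3 and 69.2 in A2iL, 85.2 and 85.9 in LCDM and 70.4 and 70.3 in 2iL-F. SL was lowest and 2iL highest without overlap, and the differences from SL were 1.78 ± 0.04 in 2iL, 0.89 ± 0.04 in 2iL-F, 0.89 ± 0.04 in A2iL and 1.17 ± 0.04 in LCDM. Aldh6a1 (chromosome 12, 84430717 to 84451004), of valine breakdown, had 3.88 and 4.37 TPM in SL, 12.8 and 15.4 in 2iL, 8.52 and 7.50 in A2iL, 10.9 and 10.4 in LCDM and 9.35 and 9.69 in 2iL-F, with 1.55 ± 0.10 in 2iL and 1.18 ± 0.10 in LCDM. Bbof1 overlaps it on the other strand. Aldh4a1, which acts in proline breakdown, was higher by 0.76 ± 0.05 in 2iL, 0.43 ± 0.05 in LCDM, 0.28 ± 0.05 in A2iL and 0.16 ± 0.05 in 2iL-F, the last a call lost without SL replicate 5 or either 2iL-F library (limma adjusted p of 0.0540 to 0.0836). Aldh5a1, which oxidises succinic semialdehyde in the breakdown of GABA, had 5.28 and 5.16 TPM in SL, 13.2 and 14.0 in 2iL, 4.97 and 4.45 in A2iL, 9.30 and 8.82 in LCDM and 6.90 and 7.02 in 2iL-F and rose in 2iL (1.23 ± 0.07) and LCDM (0.69 ± 0.07), with A2iL (-0.13) not called. Aldh9a1, which serves carnitine synthesis, was higher in 2iL (0.48 ± 0.04) and LCDM (0.55 ± 0.04) but lower in 2iL-F (-0.50 ± 0.04), at 88.1 and 91.3 TPM in 2iL against 45.5 and 44.6 in 2iL-F.

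The enzymes of retinaldehyde and other aldehydes varied more. Aldh1b1 (chromosome 4, 45799022 to 45804604), a mitochondrial enzyme, had 2.17 and 2.43 TPM in SL, 18.9 and 17.9 in 2iL, 5.04 and 4.33 in A2iL, 10.3 and 11.2 in LCDM and 7.51 and 7.45 in 2iL-F, lowest in SL without overlap, with 2.56 ± 0.08 in 2iL, 1.83 ± 0.08 in LCDM, 1.36 ± 0.08 in 2iL-F and 0.78 ± 0.08 in A2iL. Aldh1a3 (chromosome 7, 66390890 to 66427517), a retinaldehyde dehydrogenase, had 0.540 and 0.437 TPM in SL, 5.77 and 6.65 in 2iL, 0.344 and 0.277 in A2iL, 0.253 and 0.229 in LCDM and 3.91 and 3.03 in 2iL-F. It reached 1 TPM in the 4 libraries of the 2 conditions with PD0325901 alone, and entered the set through them, so that its difference is a description: the fitted values were 2.27 ± 0.12 in 2iL and 1.58 ± 0.12 in 2iL-F against SL, and the difference from 2iL was -2.46 in A2iL and -2.54 in LCDM. Aldh1a2, the related enzyme of the early embryo, had 2.53 and 2.38 TPM in SL, 2.67 and 3.24 in 2iL, 3.86 and 3.11 in A2iL, 3.22 and 2.22 in LCDM and 8.65 and 7.75 in 2iL-F and was higher in 2iL-F (1.41 ± 0.15), with 2iL (0.19) not called. Aldh1l2, a mitochondrial folate enzyme, was also highest in 2iL-F, at 3.99 and 4.09 TPM against 1.35 and 1.23 in SL (1.14 ± 0.09). Aldh3a2, the fatty aldehyde dehydrogenase, had 11.2 and 11.7 TPM in SL, 21.5 and 24.9 in 2iL, 7.74 and 8.55 in A2iL, 9.64 and 10.1 in LCDM and 14.9 and 15.7 in 2iL-F, with 2iL up by 0.95 ± 0.08 and A2iL down, at -0.44 ± 0.08. Aldh2, the main mitochondrial acetaldehyde enzyme, was highest in LCDM (143 and 150.1 TPM) and A2iL (141 and 139 TPM), against 99.5 and 97.9 in SL. Aldh16a1, an atypical member, had 15.9 and 15.3 TPM in SL and rose in 2iL by 0.60, in LCDM by 0.64 and in 2iL-F by 0.61. Aldh3b1 ranged from 2.00 to 5.46 TPM over the 10 libraries and was higher in A2iL, at 3.999 and 5.46 TPM, than in SL, at 2.93 and 2.41 (0.63 ± 0.14).

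**Figure D4:**
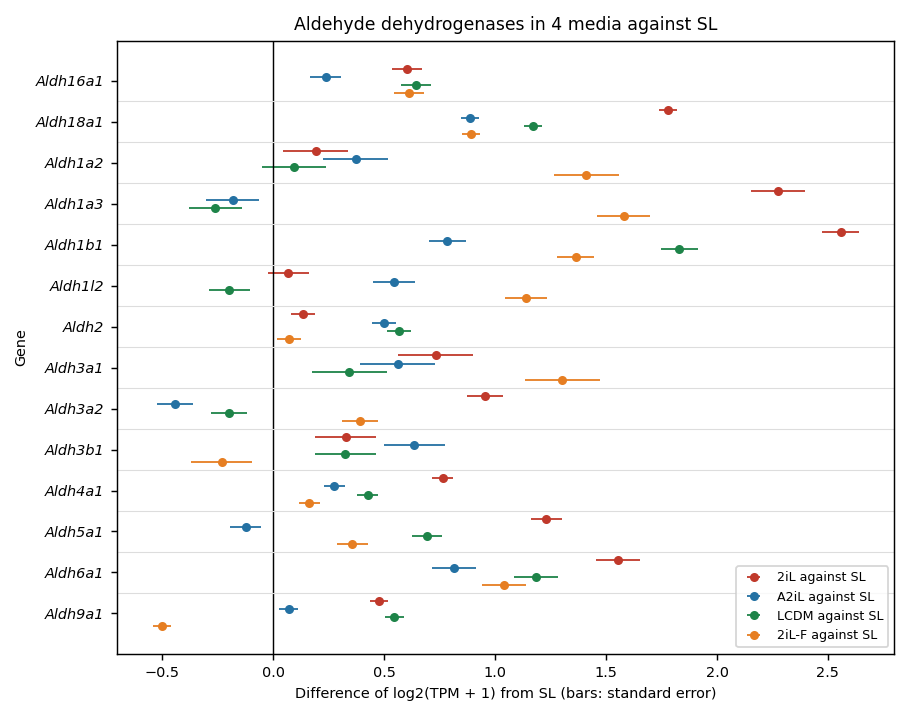
Differences of log2(TPM + 1) from SL for the 14 aldehyde dehydrogenases among the members in 4 media, as points with standard errors from limma. Aldh1b1 in 2iL lies farthest to the right at 2.56, and Aldh9a1 is the member to the left of 0 in 2iL-F that was called lower.

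The comparison of 2iL-F with 2iL holds the medium constant and differs by the feeder label. Of 59 members, 16 were higher and 23 lower in 2iL-F, beside 29.2% and 32.5% of all genes tested, with a median of -0.05 against -0.02 for all genes. The higher members were led by Gpx3 (3.12 ± 0.07) and Gpx8 (2.05 ± 0.12), followed by Srxn1 (1.37 ± 0.05), Aldh1a2 (1.22 ± 0.15), Gsto1 (1.13 ± 0.05) and Aldh1l2 (1.07 ± 0.09). The lower members were led by Gstt2 (-1.51 ± 0.11), Gpx6 (-1.37 ± 0.12), Gstm4 (-1.37 ± 0.06) and Aldh1b1 (-1.19 ± 0.08). In the same comparison all 35 fibroblast markers were called higher in 2iL-F, with a median of 5.21; their part in these differences was not tested. Hmox1 (-0.01), Txnrd1 (0.15), Prdx6 (0.14) and Cat (-0.08) were not called, so these 4 differed from SL in both sets of libraries that had this medium without a called difference between the sets. Gclc (0.56 ± 0.06) and Gclm (0.41 ± 0.09) were higher in 2iL-F, and in both sets lay below SL.

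**Figure D5:**
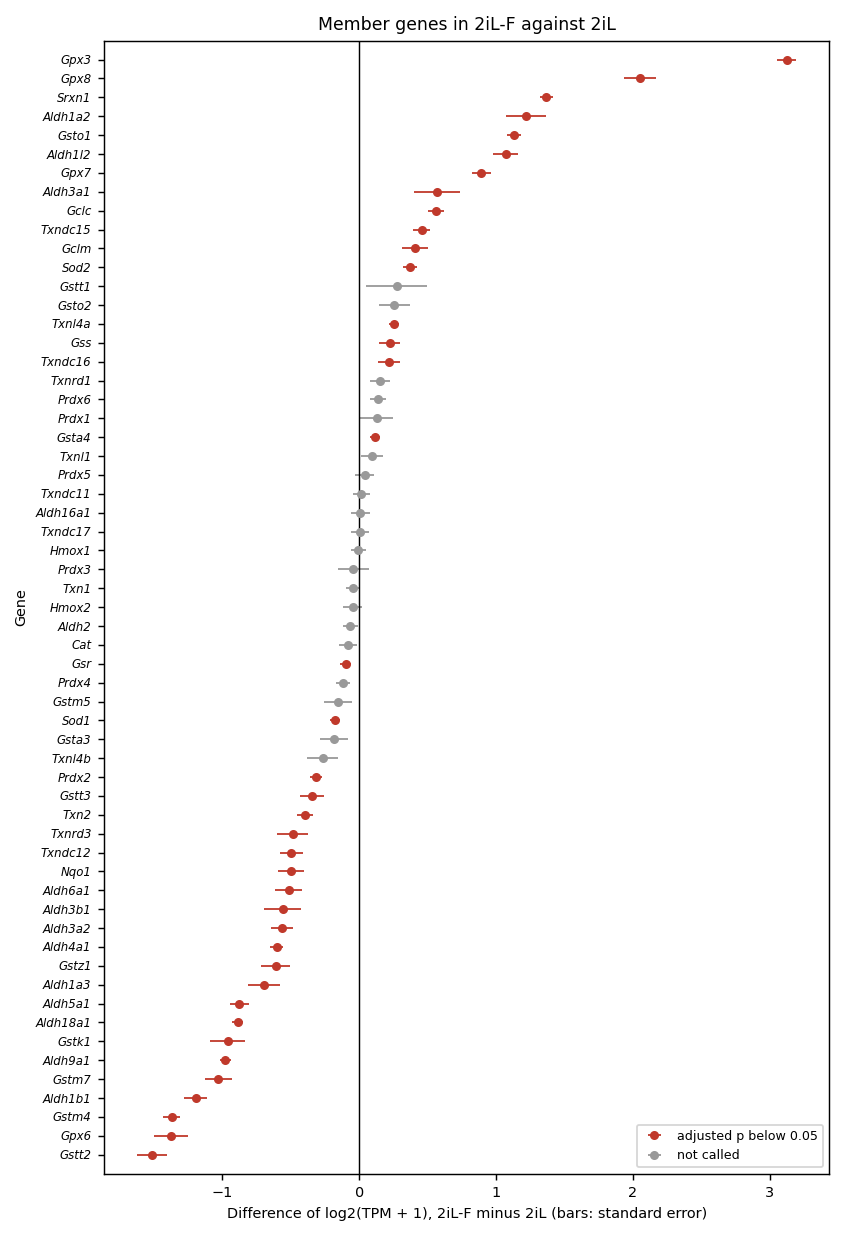
Differences of log2(TPM + 1) between 2iL-F and 2iL, which have the same medium, for the 59 members, as points with standard errors, in red where the adjusted p from limma was below 0.05. Gpx3 at 3.12 and Gpx8 at 2.05 lie farthest to the right, and Gstt2 at -1.51 farthest to the left.

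A2iL against 2iL replaces the MEK inhibitor by the Src inhibitor in the same base medium. Here 18 members were higher and 26 lower, beside 33.2% and 36.2% of all genes, with a median of -0.06 against -0.01. Higher in A2iL were Gpx3 (3.04 ± 0.07), Gpx8 (2.56 ± 0.12), Srxn1 (1.92 ± 0.05) and Gclc (1.21 ± 0.06). Lower were Aldh1b1 (-1.77 ± 0.08), Aldh3a2 (-1.40 ± 0.08) and Gss (-1.10 ± 0.07). Aldh1a3 (-2.46 ± 0.12) was lower too, but it entered the set through the PD0325901 conditions alone, so its value is a description. These libraries also differ in fibroblast markers, of which 32 of 35 were higher and 2 lower in A2iL. A2iL against 2iL-F makes the same change of inhibitor and, by the labels, also goes from no feeders to feeders, though the marker levels are closer, with 13 of 35 markers higher and 18 lower. There 19 members were higher and 21 lower, beside 22.2% and 23.0% of all genes, with a median of -0.00 against 0.01. Against 2iL-F, too, Gclc (0.65 ± 0.06), Txnrd1 (0.68 ± 0.07), Srxn1 (0.55 ± 0.05) and Hmox1 (0.64 ± 0.06) were higher in A2iL. Gss (-1.32 ± 0.07), Gsta4 (-0.77 ± 0.04) and Gsr (-0.48 ± 0.04) were lower, as was Aldh1a3 (-1.76 ± 0.12), again as a description. Gpx3 (-0.08) was not called there. Both comparisons share the A2iL libraries.

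LCDM against 2iL replaces PD0325901 by Dim and Mih. Of the members, 15 were higher and 27 lower in LCDM, beside 34.3% and 28.0% of all genes, with a median of -0.18 against 0.06. Higher members included Srxn1 (1.24 ± 0.05), Gpx8 (1.24 ± 0.12), Gpx3 (1.19 ± 0.07) and Txnrd1 (1.03 ± 0.07). Lower members included Gsta3 (-1.37 ± 0.10), Gstm7 (-1.26 ± 0.10) and Aldh3a2 (-1.15 ± 0.08). Aldh1a3 (-2.54 ± 0.12) was lower too, but it entered the set through the PD0325901 conditions alone, so its value is a description. Gsto1 (-0.48 ± 0.05) and Hmox1 (-0.48 ± 0.06) were lower as well, and in both the LCDM libraries were the lowest of the series. Fibroblast markers were higher in LCDM for 30 of 35 and lower for 4.

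Genes around this set were read from lists of related functions. Their counts of higher and lower calls against SL stand beside 36.7% and 40.9% of all genes in 2iL, 28.1% and 37.3% in 2iL-F, 21.9% and 31.9% in A2iL and 32.2% and 33.7% in LCDM. Of 7 tested genes of NRF2 control, 2 were higher and 3 lower in 2iL than in SL, 3 and 4 in 2iL-F, 3 and 2 in A2iL, and 0 and 4 in LCDM; the counts in 2iL are about the background. Nfe2l2, which encodes NRF2, had 31.0 and 33.0 TPM in SL, 35.8 and 44.8 in 2iL, 40.6 and 42.0 in A2iL, 29.7 and 27.7 in LCDM and 43.6 and 44.5 in 2iL-F and was higher in 2iL (0.32 ± 0.09), A2iL (0.36 ± 0.09) and 2iL-F (0.45 ± 0.09). Its known targets did not share 1 direction in these media: Gclc, Gclm, Srxn1 and Txnrd1 were lower than in SL in each, while Gsr was higher in each. Hmox1 was also lower in each. Nqo1 was higher than SL in 2iL, called lower in A2iL (-0.29) and not called in 2iL-F. Keap1, which marks NRF2 for degradation, was not called in 2iL against SL (-0.15). It was called higher in 2iL-F, at 34.7 and 31.7 TPM against 27.7 and 26.0 in SL. Mafk, a small partner of NRF2 at the element, had 31.7 and 30.6 TPM in SL, 10.2 and 8.995 in 2iL, 18.4 and 18.3 in A2iL, 13.7 and 14.0 in LCDM and 11.9 and 10.1 in 2iL-F and fell in 2iL (-1.60 ± 0.08), A2iL (-0.73 ± 0.08), LCDM (-1.11 ± 0.08) and 2iL-F (-1.43 ± 0.08). Sqstm1, which competes for Keap1, was lower in 2iL (-0.62 ± 0.04) and LCDM (-0.86 ± 0.04). It was higher in A2iL, at 249 and 254 TPM against 217 and 215 in SL, and lower in 2iL-F, at 201 and 197. Bach1, of the same list, had 22.2 and 22.3 TPM in SL and 35.1 and 36.0 in 2iL-F. In 2iL it had 23.5 and 26.9 TPM, in A2iL 28.4 and 28.2 and in LCDM 17.8 and 17.1.

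Of 11 tested genes of glutathione supply and turnover, 8 were higher and 3 lower in 2iL than in SL, with a median of 1.36 against -0.04 for all genes (36.7% higher and 40.9% lower), and the counts were 7 and 1 in A2iL, 5 and 3 in LCDM and 7 and 3 in 2iL-F. Ggt1, which splits extracellular glutathione, had 1.83 and 1.72 TPM in SL, 34.1 and 35.9 in 2iL, 5.23 and 4.55 in A2iL, 10.9 and 12.4 in LCDM and 6.26 and 5.68 in 2iL-F, highest in 2iL (3.70 ± 0.09). Chac1, which degrades glutathione in the cytosol, rose by 2.92 in 2iL, 2.23 in 2iL-F, 2.83 in A2iL and 2.86 in LCDM. Cbs and Cth, which make cysteine from homocysteine, rose by 2.37 and 1.53 in 2iL. Slc7a11, the cystine importer, had 2.76 and 3.07 TPM in SL, 0.422 and 0.657 in 2iL, 5.93 and 6.11 in A2iL, 1.09 and 0.843 in LCDM and 1.76 and 1.84 in 2iL-F, higher in A2iL (0.84 ± 0.11) and lower in 2iL (-1.35 ± 0.11), LCDM (-0.996 ± 0.11) and 2iL-F (-0.48 ± 0.11). In 2iL, then, Ggt1, Chac1, Cbs and Cth were higher than in SL while the importer and both ligase subunits were lower. Other genes of this list did not follow such a split. Chac2 (mean 2.92 TPM in 2iL against 6.52 in SL) and Ggct (5.30 against 8.36) were lower in 2iL. Slc3a2 (501 against 187) was higher.

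Of 14 tested genes of NADPH supply, 10 were higher and 4 lower in 2iL than in SL, with a median of 0.64 against -0.04 for all genes (36.7% higher and 40.9% lower). The counts were 4 and 3 in A2iL, near the background of 21.9% and 31.9%, 8 and 5 in LCDM and 7 and 3 in 2iL-F. Idh2 and Idh1, the NADP-dependent isocitrate dehydrogenases, rose in 2iL by 2.63 and 1.67 and in 2iL-F by 2.15 and 1.73. Mthfd2, of mitochondrial folate metabolism, rose by 1.76 in 2iL. G6pdx, which opens the pentose phosphate pathway, had 64.2 and 67.1 TPM in SL, 33.7 and 38.5 in 2iL, 64.8 and 61.4 in A2iL, 53.9 and 49.3 in LCDM and 47.1 and 48.4 in 2iL-F and was lower in 2iL (-0.85 ± 0.07), LCDM (-0.34 ± 0.07) and 2iL-F (-0.45 ± 0.07), while Tkt and Taldo1, of the later part of that pathway, rose by 0.76 and 0.64 in 2iL.

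Other glutathione enzymes had 4 of 11 higher and 5 lower in 2iL than in SL, 2 and 6 in 2iL-F, 5 and 4 in A2iL and 2 and 6 in LCDM. Mgst1, a microsomal transferase, had 9.85 and 10.1 TPM in SL, 0.435 and 0.164 in 2iL, 25.3 and 24.9 in A2iL, 3.91 and 4.78 in LCDM and 12.7 and 11.6 in 2iL-F, lowest in 2iL (-3.09 ± 0.11). Among other aldehyde and carbonyl enzymes, 4 of 10 were higher and 5 lower in 2iL, 2 and 5 in 2iL-F, 3 and 3 in A2iL and 5 and 5 in LCDM. Akr1b8, an aldo-keto reductase, had 51.8 and 51.3 TPM in SL, 2.05 and 2.36 in 2iL, 50.8 and 44.2 in A2iL, 16.4 and 15.0 in LCDM and 19.5 and 18.2 in 2iL-F and fell in 2iL (-4.04 ± 0.08). The fibroblast marker sum was lowest in 2iL too, and its part in the levels of Mgst1 and Akr1b8 was not tested. Ephx2, the soluble epoxide hydrolase, had 5.32 and 5.34 TPM in SL, 6.63 and 8.26 in 2iL, 58.4 and 59.7 in A2iL, 34.2 and 27.8 in LCDM and 28.5 and 29.5 in 2iL-F and was higher than SL in 2iL (0.41 ± 0.11), A2iL (3.25 ± 0.11), LCDM (2.33 ± 0.11) and 2iL-F (2.25 ± 0.11).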

How the data were processed

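Bulk RNA-seq of 10 libraries (5 conditions, 2 each) was used as 1 deposited table of TPM values per gene. Bowtie2, RSEM, R 3.4.2, DESeq2 and the genome build mm10 are named in the submitters' processing notes, with no roles; the strand setting is not given in the sources used here. TPM values were used as deposited by the authors, and they keep no depth, so no test or interval based on read counts was possible. Symbols were tested against their values: in lines 1 to 9865, 96.9% of 159 broadly expressed genes had at least 5 TPM, while in lines 10011 to 17803 only 48.8% did, against 94.2% when values were read 1 line below. Members and related genes were therefore taken from lines 1 to 9865. The fit used every line.

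Genes with at least 1 TPM in at least 2 libraries (14578) were fitted as log2(TPM + 1) with limma 3.58.1 in R 4.3.3, with 1 mean per condition and a variance trend (5 residual degrees of freedom), for 8 pairwise comparisons and an F test of any difference, with Benjamini-Hochberg adjustment over all genes and a threshold of 0.05. The fit was first tested on simulated data. Groups came from the labels. Libraries with the same replicate number, 3 or 5, showed little shared deviation. The correlation across genes of the differences between numbers 3 and 5 ran from -0.13 to 0.07 over the 10 pairs of conditions. That does not settle whether libraries with the same number were prepared together. Alternatives were another pseudocount, other filters, 2 other scalings, only the 4 libraries compared, the replicate number as a block and each library left out. A fit that left out the 4 libraries of 2iL and 2iL-F was chosen after seeing the data.

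The members and the lists of related genes were chosen with earlier results of these data known. Members were given in every library where they were called with a change of at least 1 (up to 5 per role, and the most abundant of each role). Related genes were given where they led their list, except Keap1, Sqstm1, G6pdx, Tkt, Taldo1, Slc7a11, Slc3a2, Chac2 and Ggct, named after their values were seen. Positions are from GENCODE vM21 (mm10), in which all 59 members matched.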

Additional observations from a re-analysis of the deposited data

How the results depend on the processing

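None of the 292 recomputed counts of members called moved by more than 1.5 times, and none of the 94 differences of at least 1 in size lost its call or its direction in 1600 recomputations. The filters, the replicate block and the fit of the 4 libraries compared leave the difference itself unchanged, so they test only its call. The same holds where the library left out is of a condition not compared. Of all 341 member calls, 57 were lost under at least 1 alternative, the largest of them 0.76 in size (Gstt1, A2iL against 2iL), and 1 changed its sign (Txndc16, 2iL-F against 2iL, -0.04 with quantile normalisation against 0.21). With the replicate block, 335 of 341 calls kept their direction and threshold, and 2iL against SL had 31 higher and 17 lower. Leaving out each library in turn, with the lone library assumed to vary like the others, gave 30 to 32 higher and 17 to 19 lower for 2iL against SL, 19 to 23 and 13 to 21 for A2iL, 20 to 25 and 15 to 20 for LCDM, and 22 to 26 and 17 to 19 for 2iL-F. Among the other comparisons it gave 12 to 19 higher and 22 to 25 lower for 2iL-F against 2iL, 16 to 19 and 25 to 26 for A2iL against 2iL, 14 to 15 and 24 to 28 for LCDM against 2iL, and 14 to 20 and 16 to 24 for A2iL against 2iL-F. The test for any difference gave 53 to 56. With the 2iL and 2iL-F libraries left out, 82 of the 83 calls of A2iL and LCDM against SL remained. Other scalings moved the median of all genes by -0.05 to 0.09. With the depth unknown, members near 1 TPM, such as Aldh3a1, Gstt1 and Gsto2, are the least certain.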

Other observations

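The smaller lists of related genes showed some further differences from SL. Their counts stand beside 36.7% of all genes called higher and 40.9% lower in 2iL, 21.9% and 31.9% in A2iL, 32.2% and 33.7% in LCDM and 28.1% and 37.3% in 2iL-F. Of 4 tested retinoid genes that act beside the Aldh1a enzymes, 0 were higher and 3 lower in 2iL, 1 and 2 in A2iL, 0 and 3 in LCDM and 0 and 2 in 2iL-F. Rdh10, which makes retinaldehyde, had 8.91 and 10.4 TPM in SL, 1.94 and 2.67 in 2iL, 3.36 and 3.01 in A2iL, 2.57 and 2.38 in LCDM and 3.61 and 3.61 in 2iL-F, lower than SL in all 4 media, while Crabp1, which binds retinoic acid, had 208 and 216 TPM in SL, 42.4 and 37.3 in 2iL, 639 and 655 in A2iL, 142 and 143 in LCDM and 91.4 and 83.6 in 2iL-F and was higher in A2iL (1.61 ± 0.07) and lower in 2iL (-2.39 ± 0.07). Rdh10 differed from SL by -1.69 ± 0.12 in 2iL.

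Of 6 genes of iron and haem handling, 1 was higher and 4 lower in 2iL, 2 and 1 in A2iL, 3 and 2 in LCDM and 2 and 3 in 2iL-F. Slc40a1, the iron exporter, had 2.84 and 3.12 TPM in SL, 0.156 and 0.0915 in 2iL, 0.467 and 0.497 in A2iL, 0.475 and 0.520 in LCDM and 0.169 and 0.165 in 2iL-F and was lower in all 4 media (-1.82 ± 0.10 in 2iL), and the ferritin heavy chain Fth1 had 1082 and 1127 TPM in SL, 526 and 610.4 in 2iL, 1754 and 1729 in A2iL, 1030.2 and 1015 in LCDM and 872 and 902 in 2iL-F, with A2iL high (0.66 ± 0.07) and 2iL low (-0.96 ± 0.07). Of 6 sources of superoxide and their partners, 2 were higher and 3 lower in 2iL, 1 and 1 in A2iL, 1 and 2 in LCDM and 2 and 2 in 2iL-F. Xdh, xanthine dehydrogenase, had 1.28 and 1.28 TPM in SL, 0 and 0 in 2iL, 13.0 and 13.2 in A2iL, 2.54 and 2.08 in LCDM and 4.99 and 4.53 in 2iL-F, higher in A2iL (2.63 ± 0.09) and lower in 2iL (-1.19 ± 0.09). Of 6 genes of selenoprotein synthesis and other selenoproteins, 2 were higher and 1 lower in 2iL, 1 and 3 in A2iL, 2 and 1 in LCDM and 2 and 2 in 2iL-F, with Sephs1, a selenophosphate synthetase relative, lower in each (-0.46 ± 0.07 in 2iL). Of 6 genes of sulfenic acid and methionine repair, 2 were higher and 1 lower in each of the 4 media, with Sesn2, a stress-induced sestrin, higher in each (0.76 ± 0.06 in A2iL). Among markers of other embryonic lineages, 5 primitive endoderm markers summed to 10.2 to 22.0 TPM over the libraries. The 5 trophoblast markers summed to 31.8 to 128 TPM, most of it Tfap2c, at 23.3 and 23.8 TPM in SL, 123 and 113 in 2iL, 58.8 and 58.6 in A2iL, 69.7 and 75.0 in LCDM and 79.9 and 75.4 in 2iL-F. The trophoblast marker Cdx2 went the other way, at 3.53 and 3.78 TPM in SL, 0 and 0 in 2iL, 0.603 and 0.606 in A2iL, 0.129 and 0.156 in LCDM and 0.593 and 0.772 in 2iL-F, as did Gata3, at 1.41 and 1.43 TPM in SL and 0.57 and 0.58 in 2iL.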
